A study of Mus musculus with 6 samples.

Results

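The tumour necrosis factor gene Tnf and 9 genes of the NF-kB pathway around it were followed across the non-neuronal cells of the mouse brain after ischemic stroke. The 10 genes were taken by symbol from the 32285 genes of the deposited matrix, and each symbol matched 1 gene ID. They are the ligand Tnf, the receptors Tnfrsf1a and Tnfrsf1b, the inhibitors Nfkbia and Tnfaip3, the nuclear IkB genes Nfkbiz, Nfkbid and Bcl3, and the NF-kB subunits Nfkb1 and Relb. TNF is a cytokine that is made early after tissue injury, in the brain mainly by microglia and by infiltrating myeloid cells. Its binding to TNFR1 or TNFR2 leads to degradation of IkB proteins and lets NF-kB dimers enter the nucleus. Among the genes that NF-kB switches on are its own brakes, so that the inhibitors IkBα and A20 are made in answer to the signal that they end.

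The animals were male RGS5::GFP het mice on a C57bl/6 background, in which GFP replaces 1 allele of the pericyte gene Rgs5, aged 8 to 12 weeks. All of them had a permanent occlusion of the middle cerebral artery, and the groups were the ipsilateral (ipsi) and the contralateral (contra) cortex at 1, 12 and 24 h, with 1 library per group. The contra samples came from animals that had the stroke too, and no sham-operated sample was analysed here. Tissue was digested enzymatically for 1 h at 37 °C, and live cells depleted of neurons were sorted and measured by 10× single-cell RNA sequencing. The sample labels name kit version 3 at 1 and 24 h and version 3.1 at 12 h, where the study's methods name only the later kit. If the labels hold, kit and time cannot be told apart for the 12 h groups. The methods also name a NovaSeq sequencer for the 1 and 12 h samples and a HiSeq for the 24 h samples. Sequencer and time therefore cannot be told apart for the 24 h groups.

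In the deposited matrix each barcode ends in a library number from 1 to 6, and which group each number stands for is not given in the sources used here. Values are therefore given for libraries 1 to 6 by number, no value was assigned to a hemisphere or a timepoint, and no test between libraries was made. The files held 12427757 to 40793772 UMIs per library, a UMI being a tag that marks 1 captured RNA molecule, and 17357 cells were kept. Libraries 1 to 6 had 1221, 1405, 5873, 4216, 1906 and 2736 cells with median depths of 5053 to 5660.5 UMIs. In all, 26 barcodes occurred in more than 1 library, which touched 52 cells (0.2996%). Libraries 4 and 6 stood apart from the others. They held all cells of microglia-like cluster 12, oligodendrocyte-like cluster 20 and pericyte-like cluster 23, and, with 672 and 543 cells, most of the 1289 cells of microglia-like cluster 4. Cell classes were rebuilt from marker genes and end in -like for that reason. Of the 17357 cells, 8123 were microglia-like, 2820 oligodendrocyte-like and 2674 endothelial-like, and 10 smaller classes were named. None of the 10 genes was used to cluster the cells.

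Promoter sequence is shown for 3 genes of the negative feedback and for the ligand, since a shared upstream element is the textbook link between them. RefSeq promoters on GRCm38.p6 were at hand for 7 of the 10 genes, with 10 start sites. The 250 bases before each start were searched on both strands for the 10-base NF-kB consensus, and matches are in capitals. It was found in 3 of the 10 windows, those of Nfkbia, of Tnfaip3 at its first listed start and of Nfkbid at its second listed start. The windows shown are these 3 with a match and that of Tnf without one. The other starts of Tnfaip3 and Nfkbid and the windows of Tnfrsf1a, Tnfrsf1b and Bcl3 held no match and are not shown. Among all 32851 mouse windows of the same length, 2382 (7.25%) held it.
Nfkbia, chr12:55492648-55492897 (minus strand): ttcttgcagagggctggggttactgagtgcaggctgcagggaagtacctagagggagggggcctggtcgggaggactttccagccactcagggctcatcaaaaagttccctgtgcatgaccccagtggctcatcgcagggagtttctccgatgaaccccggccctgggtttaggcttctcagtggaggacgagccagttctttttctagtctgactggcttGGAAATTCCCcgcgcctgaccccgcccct
Tnfaip3, chr10:19015411-19015660 (minus strand): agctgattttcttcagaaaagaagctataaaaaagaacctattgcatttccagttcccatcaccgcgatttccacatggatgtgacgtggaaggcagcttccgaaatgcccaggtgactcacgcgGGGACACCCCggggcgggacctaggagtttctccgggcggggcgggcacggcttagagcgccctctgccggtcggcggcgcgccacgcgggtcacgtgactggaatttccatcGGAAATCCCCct
Nfkbid, chr7:30422156-30422405 (plus strand): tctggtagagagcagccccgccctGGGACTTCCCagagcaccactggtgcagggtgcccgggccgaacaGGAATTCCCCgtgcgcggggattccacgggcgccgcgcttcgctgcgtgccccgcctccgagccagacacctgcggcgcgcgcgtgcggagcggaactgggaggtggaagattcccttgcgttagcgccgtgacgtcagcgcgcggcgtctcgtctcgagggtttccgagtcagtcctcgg
Tnf, chr17:35202008-35202257 (minus strand): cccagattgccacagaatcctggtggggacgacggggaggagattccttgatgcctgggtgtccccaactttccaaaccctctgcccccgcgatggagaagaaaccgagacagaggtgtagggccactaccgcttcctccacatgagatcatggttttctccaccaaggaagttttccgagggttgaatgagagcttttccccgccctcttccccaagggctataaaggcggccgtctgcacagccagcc
The match of Nfkbia ended 20 bases before the start, counted at its base nearest to it. Those of Tnfaip3 ended 116 and 3 bases before the start and those of Nfkbid 217 and 172 bases before it, with no overlap between matches. A match describes these letters and is not evidence of binding, and a window without a match, like that of Tnf, says only that the consensus is not in those bases.

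Most of the 10 genes were myeloid genes in these cells. Expression is given in CPM, where the UMIs of a gene were summed over the cells of a class and scaled by the total UMIs of those cells, and a gene was called when a class differed at least 2-fold from all other named cells. In microglia-like cells 8 of the 10 genes were called higher, where 15.8% of the 14089 genes with at least 100 UMIs were. The median ratio of the 10 genes was 3.81, against 0.856 over all of those genes. Of the 8 calls, those of Tnfrsf1a and Relb did not hold under every alternative, with lowest ratios of 1.44 and 1.60. Neutrophil-like cells (178 cells) had 7 of 10 called higher against 7.09% of all genes, and monocyte-derived macrophage-like cells (374 cells) had 6 of 10 against 6.82%. In oligodendrocyte-like cells and in neuroblast-like cells all 10 genes were called lower, where 37.4% and 31.1% of all genes were. Astrocyte-like cells had 8 of 10 called lower against 28.8%, smooth muscle-like cells 6 against 34.4%, pericyte-like cells 6 against 27.8%, endothelial-like cells 5 against 32.8% and T lymphocyte-like cells 2 against 52.0%. Intervals in brackets are exact 95% intervals, which cover counting error alone, since each group had 1 library and cells are not replicates. For a range between libraries, the highest and the lowest library were picked from the same counts. Its interval does not allow for that choice, and the extremes of several libraries differ to some extent by counting error alone. In these summed counts, fewer cells with a transcript and less RNA per cell cannot be told apart.

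**Figure D1:**
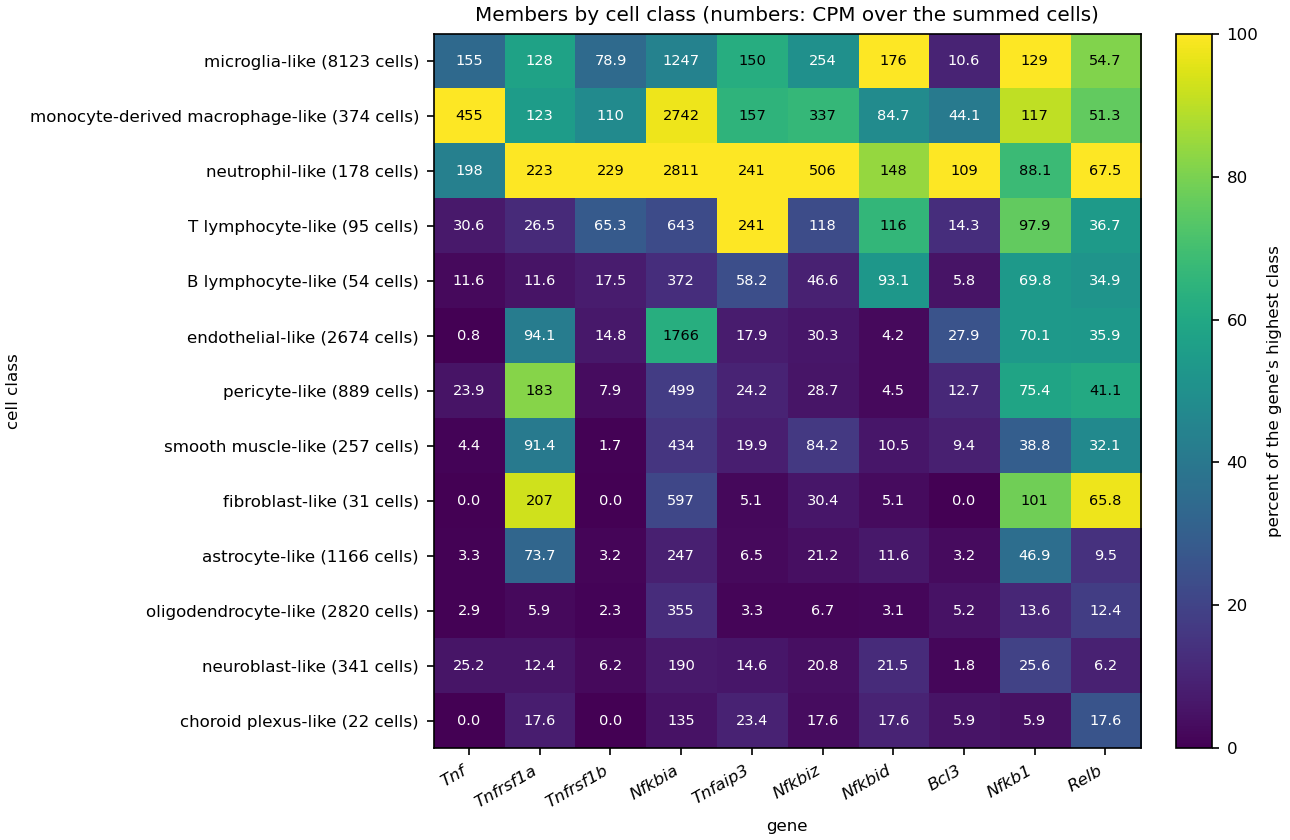
Expression of the 10 genes (columns) in 13 cell classes (rows, with their number of cells). The number in each field is the CPM over the summed cells and the colour is its percent of the gene's highest class; Tnf reached 455 CPM in monocyte-derived macrophage-like cells and 0.847 CPM in endothelial-like cells.

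Tnf, the ligand of the system, lies on chr17:35199381-35202007 (GRCm38, minus strand). Its level was 455 CPM in monocyte-derived macrophage-like cells, 198 CPM in neutrophil-like cells and 155 CPM in microglia-like cells. The next classes were T lymphocyte-like cells with 30.6 CPM and neuroblast-like cells with 25.2 CPM, and these neighbours did not differ beyond counting error. Microglia-like cells stood 4.57-fold (4.35 to 4.81) above all other named cells. The ratio was 12.3 without library 6 and 2.90 without library 4. Of the 9362 Tnf UMIs in cells, 8918 lay in named cells. Microglia-like cells held 78.0% of these 8918, with 43.7% of all UMIs of named cells. Monocyte-derived macrophage-like cells held another 17.2%. Between libraries the macrophage-like level was 211 CPM in library 4 and 595 CPM in library 6, which held 121 and 235 of the 374 cells, and the ratio of 6.13 (5.80 to 6.48) to all other named cells was 3.09 without library 6. In neutrophil-like cells it was 0 in library 3, 70.3 CPM in library 4 and 570 CPM in library 6. The neutrophil-like ratio of Tnf, 2.31 (1.93 to 2.73), therefore rested on library 6, and was 1.19 without it.

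In the vascular, astrocyte-like and oligodendrocyte-like classes Tnf was close to nil. A Tnf UMI was found in 20.4% of microglia-like and in 0.374% of endothelial-like cells, which had median depths of 5150 and 4001 UMIs. After every cell was thinned to 1000 UMIs the shares were 7.57% and 0.112%. Barcodes with 1 to 50 UMIs, which hold free RNA and no cell, had 61.1 CPM of Tnf, above the level of every class other than the 3 myeloid ones. Pericyte-like cells had 23.9 CPM, but of their 85 Tnf UMIs 74 came from 1 cell of library 3. This cell was called a doublet, and pericyte-like cells had 0.971 CPM without called doublets. Oligodendrocyte-like cells went from 2.92 to 0.653 CPM in the same way. In neuroblast-like cells 28 of 69 Tnf UMIs came from 1 cell that was not called a doublet.

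Tnf was spread unevenly over the microglia-like cells. The 5% of them with the most Tnf, 406 cells, held 69.1% of its UMIs, up to 111 in 1 cell. The same share of cells held 97.3% of the 479 UMIs of Bcl3, a gene so sparse that few cells can hold them. It held 49.7% of the UMIs of Tnfaip3, 48.5% of those of Nfkbiz and 43.2% of those of Nfkbid. The values were 38.2% for Relb, 33.8% for Nfkbia, 29.1% for Tnfrsf1b, 27.0% for Nfkb1 and 22.5% for Tnfrsf1a. Across clusters Tnf was 10.4 CPM in cluster 1, 45.0 CPM in cluster 0, 180 CPM in cluster 5, 288 CPM in cluster 4 and 748 CPM in cluster 12. Clusters 0 and 1 were led by the homeostatic genes P2ry12, Gpr34 and Tmem119, cluster 5 by Cd83, Ccl4 and Ccl3, cluster 4 by Ccl12, Cxcl10 and Gpr84, and cluster 12 by Spp1, Lpl and Mmp12. Cluster 12 held 4.26% of the microglia-like cells and 30.6% of their Tnf UMIs, whereas cluster 1 held 27.4% of the cells and 1.44% of the UMIs.

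By library the microglia-like level of Tnf was 68.3, 81.4, 62.0, 273, 54.3 and 286 CPM in libraries 1 to 6. Libraries 4 and 6 were high and close to each other, and the other 4 lay between 54.3 and 81.4 CPM. From the lowest to the highest library the ratio was 5.26 (4.62 to 6.02). In these libraries the make-up of the class also differed. Cluster 4 held 30.4% of the microglia-like cells of library 4 and 54.7% of those of library 6, and 0.625% to 2.56% of those of the other libraries. Cluster 12 held 10.5% and 11.6% in libraries 4 and 6 and had no cell in the others. Within cluster 0 the level of Tnf in libraries 1 to 6 was 49.4, 45.1, 40.3, 66.6, 36.0 and 36.9 CPM, a range of 1.85-fold (1.41 to 2.44), with library 6 among the lowest. Within cluster 5 it was 125, 177, 182, 277, 110 and 109 CPM, a range of 2.53-fold (1.84 to 3.56), where library 4 was again the highest and library 6 the lowest. Other clusters had another order. In cluster 4, among the libraries with at least 20 of its cells, libraries 4 and 6 had 308 and 283 CPM and libraries 3 and 5 had 146 and 99.6 CPM. In cluster 1 library 6 was the highest with 22.4 CPM and library 5 the lowest with 5.13 CPM, a ratio of 4.36 (1.31 to 16.6) on 9 and 5 UMIs. The part of cluster make-up in the difference between libraries was not tested further. Free RNA moved with it too, with 125 and 111 CPM of Tnf in libraries 4 and 6 and 20.7 to 33.1 CPM in the others.

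**Figure D2:**
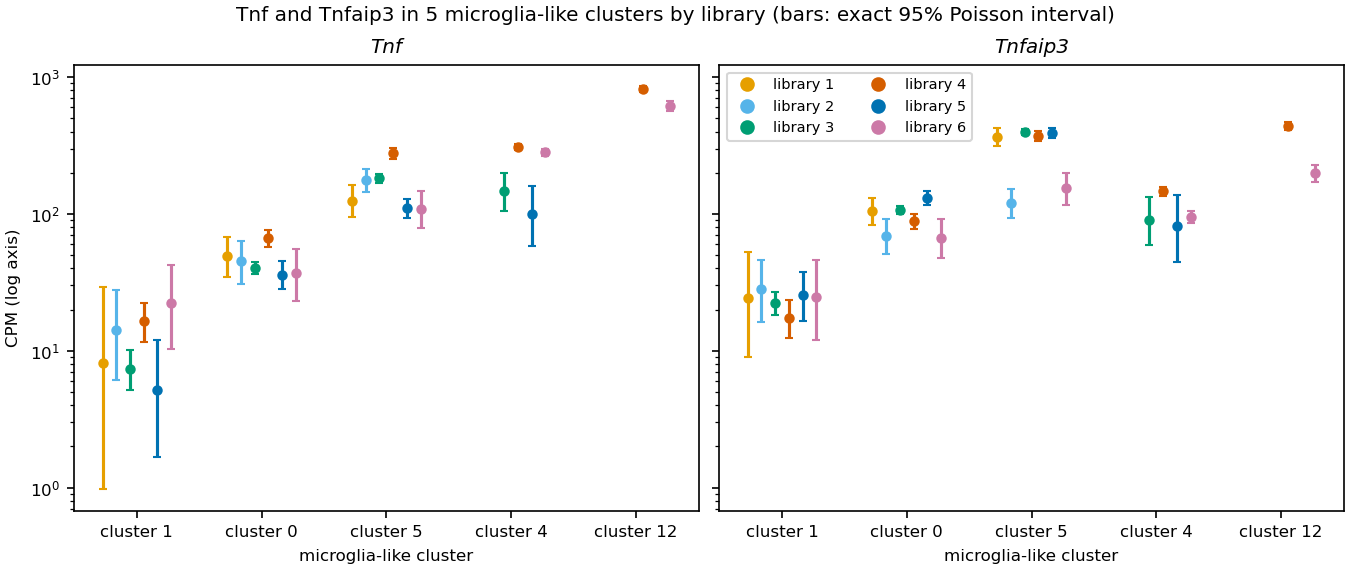
Tnf (left) and Tnfaip3 (right) in CPM on a log axis, in 5 microglia-like clusters and for each library with at least 20 cells there (colours); bars are exact 95% Poisson intervals. Tnf goes from 10.4 CPM in cluster 1 to 748 CPM in cluster 12, which libraries 4 and 6 alone hold, while within cluster 0 the libraries lie between 36.0 and 66.6 CPM.

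The 2 receptors had different distributions. Tnfrsf1a encodes TNFR1, the widely expressed receptor with a death domain. Its level was 223 CPM in neutrophil-like, 207 CPM in fibroblast-like and 183 CPM in pericyte-like cells, 128 CPM in microglia-like and 123 CPM in monocyte-derived macrophage-like cells, and 94.1 CPM in endothelial-like cells. Neighbours among the first 3 did not differ beyond counting error, nor did microglia-like and macrophage-like cells. Tnfrsf1a was the single gene of the 10 that was called higher in pericyte-like cells, by 2.16-fold (1.99 to 2.34), where 11.5% of all genes were. This call lay close to the limit of 2-fold and pooled 2 unlike clusters. Cluster 23 had 542 and 292 CPM in libraries 4 and 6, and cluster 6 had 130 to 211 CPM over the 6 libraries. Cluster 6 alone stood less than 2-fold above the named cells outside the class, so the call rested on cluster 23. Whether the pooled call holds under the other alternatives was not tested. Oligodendrocyte-like cells had the lowest level, 5.92 CPM. Tnfrsf1b encodes TNFR2, which lacks a death domain and is known mainly from immune and endothelial cells. It was 229 CPM in neutrophil-like, 110 CPM in macrophage-like and 78.9 CPM in microglia-like cells, and 14.8 CPM in endothelial-like, 7.88 CPM in pericyte-like and 2.34 CPM in oligodendrocyte-like cells. Microglia-like cells stood 5.26-fold (4.88 to 5.67) above all other named cells for Tnfrsf1b and 2.27-fold (2.17 to 2.37) for Tnfrsf1a.

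Tnfrsf1a differed between libraries outside the microglia. In endothelial-like cells it was 39.4, 55.8, 86.4, 145, 54.1 and 126 CPM in libraries 1 to 6, in astrocyte-like cells 37.01, 37.6, 45.3, 119, 31.9 and 142 CPM, and in pericyte-like cells 145, 173, 130, 292, 136 and 242 CPM. Oligodendrocyte-like cells had 2.40, 2.09, 7.12, 9.61, 2.63 and 10.7 CPM. Libraries 4 and 6 held the 2 highest values in each of these 4 classes. Microglia-like cells did not have this order, with 124, 201, 126, 128, 130 and 111 CPM, where library 2 was the highest and library 6 the lowest. The highest library stood above the lowest by 3.67-fold (2.40 to 5.89) in endothelial-like cells, by 3.85-fold (2.58 to 5.86) in astrocyte-like cells over the 5 libraries with at least 50 of them, by 2.24-fold (1.82 to 2.75) in pericyte-like cells and by 1.82-fold (1.60 to 2.06) in microglia-like cells. Within endothelial-like cluster 2, which all libraries share, Tnfrsf1a was 32.2, 48.2, 75.4, 99.7, 48.0 and 48.7 CPM in libraries 1 to 6, a range of 3.09-fold (1.79 to 5.74). There library 4 was the highest, and library 6 was below library 3 and close to libraries 2 and 5. Cluster 9, led by Ctla2a, Tmem252 and Lcn2, had 180 CPM and cluster 2 had 62.2 CPM. Cluster 9 was 38.8% and 51.1% of the endothelial-like cells of libraries 4 and 6 and 1.18% to 4.15% of those of the other libraries. Tnfrsf1b in microglia-like cells was 49.2, 86.6, 90.8, 81.0, 67.2 and 54.8 CPM in libraries 1 to 6, a range of 1.85-fold (1.46 to 2.37).

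**Figure D3:**
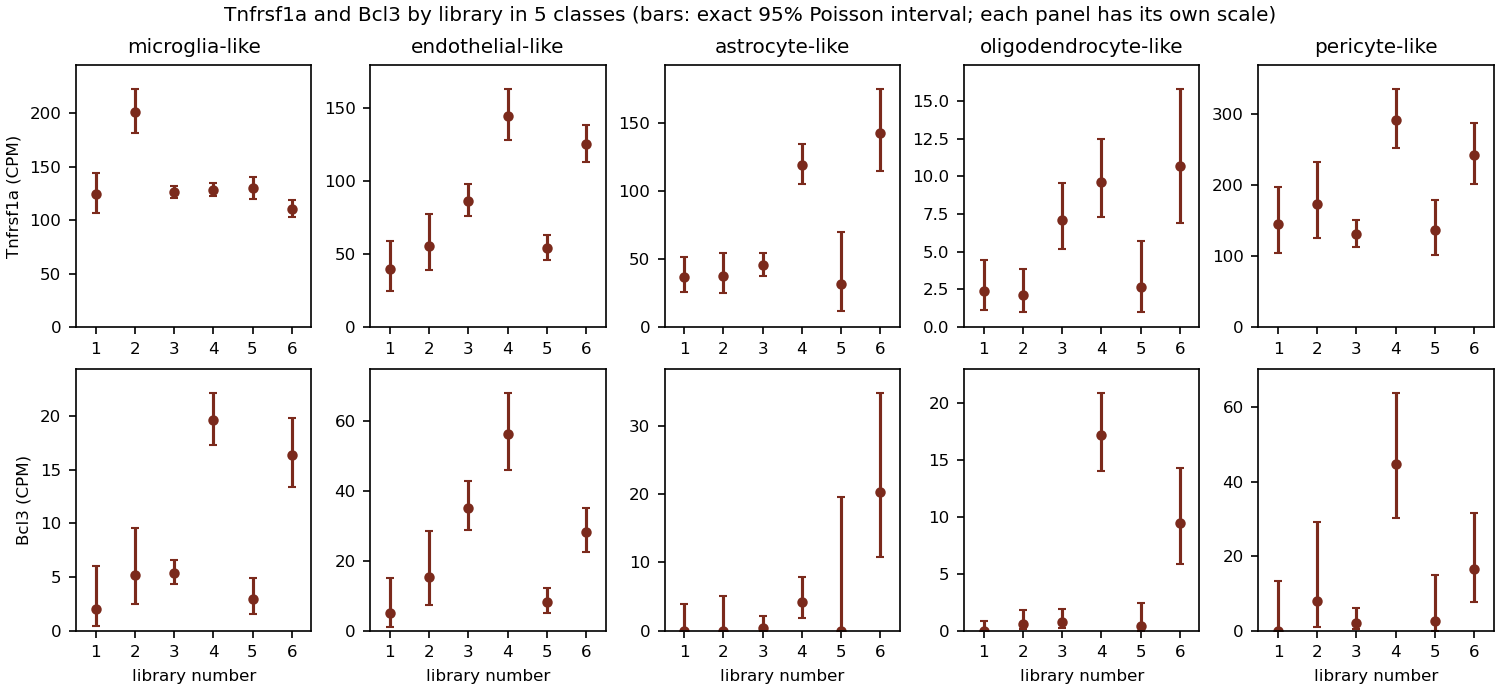
Tnfrsf1a (top) and Bcl3 (bottom) in CPM by library number in 5 cell classes, each panel on its own scale from 0; bars are exact 95% Poisson intervals. In endothelial-like cells Tnfrsf1a is 145 and 126 CPM in libraries 4 and 6 and at most 86.4 CPM in the others, whereas in microglia-like cells library 2 is the highest with 201 CPM.

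The feedback inhibitors followed. Nfkbia encodes IkBα, which holds NF-kB in the cytoplasm and is remade once NF-kB is active. It was 2811 CPM in neutrophil-like and 2742 CPM in macrophage-like cells, which did not differ beyond counting error, 1766 CPM in endothelial-like and 1247 CPM in microglia-like cells. A UMI of Nfkbia was found in 97.0% of endothelial-like and 83.4% of microglia-like cells. Its ratio to all other named cells was 1.97 (1.94 to 1.997) in endothelial-like cells and 1.55 (1.53 to 1.57) in microglia-like cells, both under the 2-fold call, and 2.85 (2.73 to 2.99) in neutrophil-like cells. Tnfaip3 encodes A20, an enzyme that edits ubiquitin chains on the receptor complex and shuts the signal off. It was 240.7 CPM in both neutrophil-like and T lymphocyte-like cells, 157 CPM in macrophage-like and 150 CPM in microglia-like cells, and 17.9 CPM in endothelial-like cells. In T lymphocyte-like cells it was the single gene of the 10 called higher, by 3.09-fold (2.56 to 3.71), where 7.23% of all genes were. Endothelial-like cells thus combined a high Nfkbia with a Tnfaip3 at 0.207 (0.180 to 0.237) of the level in all other named cells.

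In microglia-like cells of libraries 1 to 6 Nfkbia was 1268, 973, 1020, 1496, 1264 and 1427 CPM, a range of 1.54-fold (1.47 to 1.61). Tnfaip3 was 173, 72.5, 142, 176, 188 and 108 CPM, a range of 2.59-fold (2.16 to 3.12). Library 2 was the lowest for both, and libraries 4 and 6, the highest for Tnf, were not the highest for Tnfaip3. Without library 2 the range of Tnfaip3 was 1.74-fold. Within cluster 5 Tnfaip3 was 365, 120, 399, 369, 393 and 154 CPM, so that libraries 2 and 6 stood below the other 4 there too, and Nfkbia ranged over 1.37-fold (1.28 to 1.47).

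The nuclear IkB genes encode proteins that act on NF-kB at its target genes. Nfkbiz encodes IkBζ, which is needed for a set of secondary response genes. It was 506 CPM in neutrophil-like, 337 CPM in macrophage-like and 254 CPM in microglia-like cells, in an order beyond counting error, and 118 CPM in T lymphocyte-like and 84.2 CPM in smooth muscle-like cells. In microglia-like cells of libraries 1 to 6 it was 210, 158, 195, 305, 236 and 364 CPM, highest in libraries 4 and 6, with a range of 2.31-fold (2.04 to 2.61). The range was 1.86-fold without library 2 and 1.93-fold without library 6. Nfkbid encodes IkBNS. It had the largest microglia-like ratio of the 10 genes, 13.2 (12.3 to 14.3), and 91.1% of its UMIs in named cells lay in that class. Its level was 176 CPM in microglia-like, 148 CPM in neutrophil-like and 116 CPM in T lymphocyte-like cells. Only neighbours in that order did not differ beyond counting error. Macrophage-like cells had 84.7 CPM. In monocyte-derived macrophage-like cells, where Tnf was highest, the ratio of Nfkbid was 1.00 (0.889 to 1.13). This pooled value covers 2 unlike libraries, with 23.9 CPM on 26 UMIs in library 4 and 109 CPM on 239 UMIs in library 6. By library the microglia-like level of Nfkbid was 272, 191, 156, 154, 163 and 260 CPM, so that libraries 1 and 6 were the highest and library 4 the lowest.

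Bcl3 encodes a nuclear IkB protein that works with p50 and p52 homodimers, and it was the exception among the 10 genes. It was the single one below 1 in microglia-like cells, with a ratio of 0.786 (0.700 to 0.882), and the single one called higher in endothelial-like cells, by 2.72-fold (2.39 to 3.09). There 11.9% of all genes were called higher. The endothelial-like call did not hold without library 3, where the ratio was 1.93, nor against the mean of the other classes with equal weight, where it was 1.51. Its levels were 109 CPM in neutrophil-like, 44.1 CPM in macrophage-like, 27.9 CPM in endothelial-like and 10.6 CPM in microglia-like cells. Bcl3 shares its locus on chromosome 7 with 2 gene models on the other strand, Gm16174 and Gm16175.

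Bcl3 was highest in library 4 or 6 in each of the 5 largest classes. In microglia-like cells it was 2.05, 5.22, 5.37, 19.6, 2.95 and 16.3 CPM in libraries 1 to 6, and library 4 stood 9.55-fold (3.23 to 46.6) above library 1, which had 3 UMIs. In endothelial-like cells it was 5.15, 15.5, 35.3, 56.3, 8.23 and 28.3 CPM, where library 3 lay between libraries 6 and 4. Oligodendrocyte-like cells had 0, 0.628, 0.809, 17.2, 0.438 and 9.41 CPM, and of the 102 UMIs in library 4 79 lay in the 88 cells of cluster 20. This cluster, led by Il33, Ptgds and Cldn11, had 84.9 CPM in library 4 and 36.8 CPM in library 6. Astrocyte-like cells had 4.16 CPM in library 4 and 20.4 CPM in library 6, and at most 0.387 CPM in the others, on 23 UMIs in all. Pericyte-like cells had 44.7 and 16.6 CPM in libraries 4 and 6 and at most 8.04 CPM in the others, on 45 UMIs in all. Free RNA had 19.4 and 14.8 CPM of Bcl3 in libraries 4 and 6 and at most 4.31 CPM in the others, and its part in these differences was not tested.

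Of the 2 subunit genes, Nfkb1 encodes p105, the precursor of p50, and Relb encodes the transactivating subunit of the non-canonical pathway. Nfkb1 and Relb had the smallest ranges of the 10 genes between the microglia-like cells of the libraries, and these 2 ranges did not differ beyond counting error. Nfkb1 was 123, 141, 134, 123, 149 and 112 CPM, a range of 1.33-fold (1.1999 to 1.48). Relb was 63.5, 55.3, 47.0, 60.7, 61.9 and 55.8 CPM, a range of 1.35-fold (1.08 to 1.68). This interval covers the range of Nfkbia, 1.54-fold (1.47 to 1.61), so Relb was not set apart from Nfkbia beyond counting error. Microglia-like cells stood 3.04-fold (2.90 to 3.19) above all other named cells for Nfkb1 and 2.45-fold (2.29 to 2.62) for Relb. In endothelial-like cells Nfkb1 was 54.9 to 90.2 CPM, whereas Relb was 15.4, 21.7, 34.2, 69.5, 17.2 and 40.9 CPM in libraries 1 to 6, again with libraries 4 and 6 the highest. Relb was 69.3 CPM in endothelial-like cluster 9 and 28.1 CPM in cluster 2, and 155 CPM in pericyte-like cluster 23 and 27.7 CPM in cluster 6. Cluster 23, led by Il11, Vtn and Ccl11, also had 405 CPM of Tnfrsf1a against 157 CPM in cluster 6. Gm43430 overlaps Nfkb1 on the same strand, and reads of the overlap cannot be assigned with certainty.

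**Figure D4:**
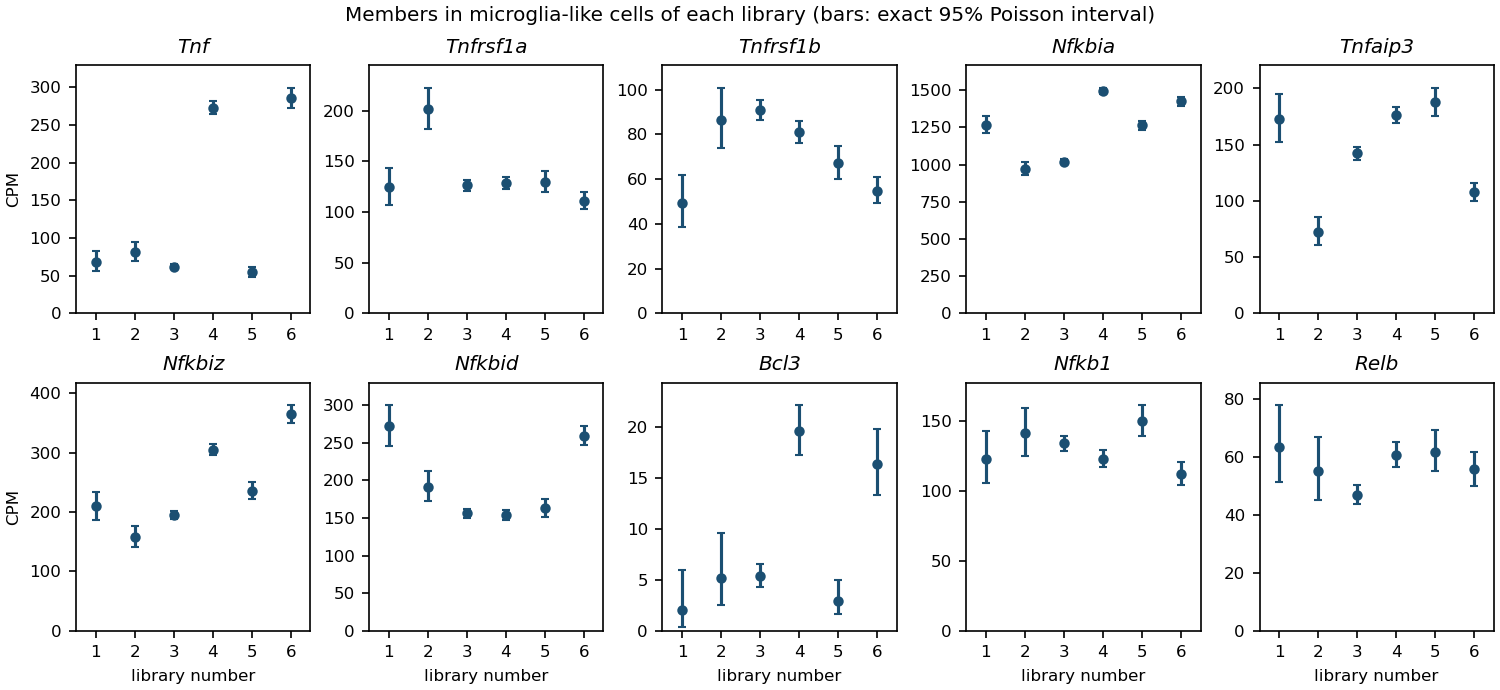
The 10 genes in microglia-like cells (CPM, each panel on its own scale from 0) by library number; bars are exact 95% Poisson intervals. Tnf is 273 and 286 CPM in libraries 4 and 6 and at most 81.4 CPM in the others, while Nfkb1 lies between 112 and 149 CPM in all 6.

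Counted over the libraries, 4 of the 10 genes (Tnf, Tnfaip3, Nfkbiz and Bcl3) differed at least 2-fold between the highest and the lowest library in microglia-like cells, where 42.4% of the 10678 genes tested did. The share of the 10 genes was thus that of the background. In endothelial-like cells 6 of the 8 genes with at least 100 UMIs did, against 45.7% of 8509 genes. They were Tnfrsf1a, Tnfrsf1b, Tnfaip3, Nfkbiz, Bcl3 and Relb. When cells were thinned to 1000 UMIs, 3 genes were called. The minimum of 100 UMIs then held for the thinned counts, so sparse genes could drop out, and the 3 cannot be set against the 6. Oligodendrocyte-like cells had 3 of 6 genes (Tnfrsf1a, Bcl3 and Relb) against 28.0%, astrocyte-like cells 2 of 4 (Tnfrsf1a and Nfkbiz) against 37.3%, and pericyte-like cells 4 of 5 (Tnfrsf1a, Nfkbia, Nfkbiz and Relb) against 54.8%.

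Within the microglia-like class, Tnfaip3 and Nfkbiz were found in a larger share of the cells with Tnf than of those without it. Cells thinned to 1000 UMIs were compared within each library with at least 20 cells that had a Tnf UMI, which left out library 1 with its 14. Tnfaip3 was found in 8.33% of cells with Tnf and 5.90% of cells without it in library 2, in 23.8% and 8.11% in library 3, in 21.9% and 8.36% in library 4, in 25.0% and 11.9% in library 5, and in 16.8% and 6.81% in library 6. The share was higher beside Tnf in all 5 libraries, with a ratio of the mean shares of 2.33 and single libraries from 1.41 to 2.93. For Nfkbiz the ratio was 2.16, from 1.496 to 3.29. Bcl3 was above 2-fold as well, with 3.13, but from 0 to 10.3 in single libraries and with mean shares of 2.35% and 0.750%. These were 3 of the 9 other genes, where 4.96% of 10677 genes passed the same call. Nfkbia and Nfkbid each had 1.55, Relb 1.43, Nfkb1 1.115, and the receptors Tnfrsf1a and Tnfrsf1b 1.08 and 0.992. For Nfkbia the mean shares were 71.5% beside Tnf and 46.2% without it, and for Nfkbid 18.6% and 12.1%. A gene already found in many cells, like Nfkbia, has little room to reach a 2-fold ratio of shares, so these ratios do not rank the genes.

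Before thinning, cells with Tnf were deeper than the others in 4 of the 5 libraries, with medians of 6079 against 4975 UMIs in library 3, 6737 against 5249.5 in library 4, 5894 against 5351 in library 5 and 7904 against 5297 in library 6, and 4032 against 4395 in library 2. Within single clusters, over all libraries, the ratio of Tnfaip3 was 1.44 in cluster 0, 2.14 in cluster 4, 1.48 in cluster 5 and 1.55 in cluster 12. That of Nfkbiz was 1.501, 2.01, 1.26 and 2.25 in the same clusters. The ratios of both genes were above 1 in each of the 4 clusters, and in clusters 0 and 5 they were below 2.

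**Figure D5:**
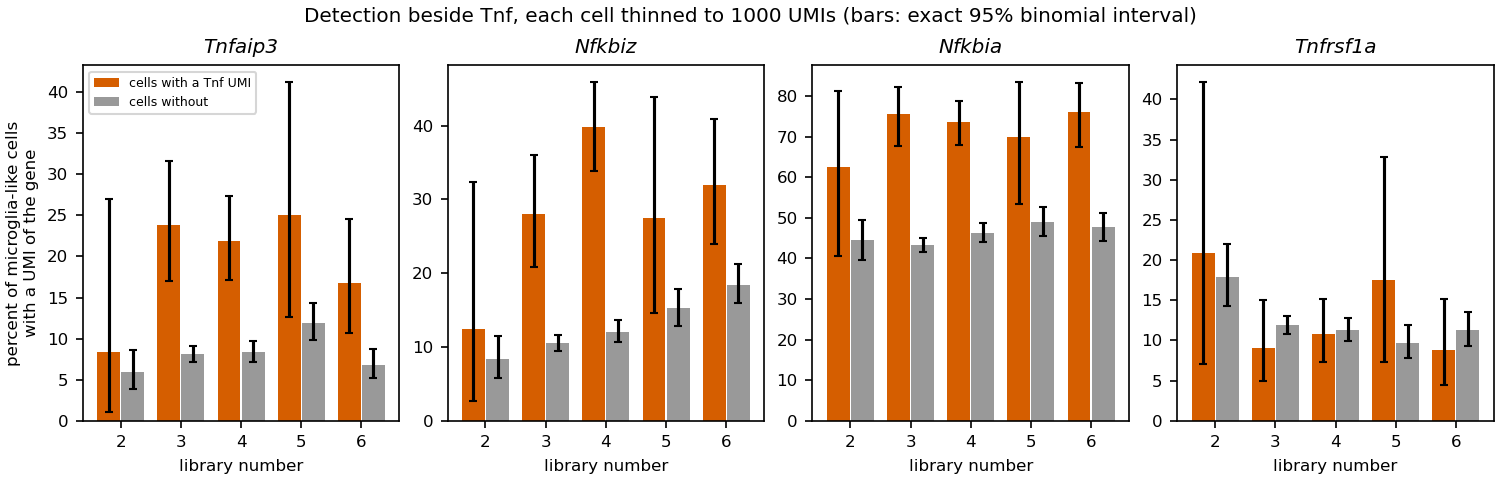
Percent of microglia-like cells with a UMI of Tnfaip3, Nfkbiz, Nfkbia or Tnfrsf1a, in cells with a Tnf UMI (orange) and cells without one (grey), by library number and after thinning to 1000 UMIs; bars are exact 95% binomial intervals. For Tnfaip3 the 2 shares are 21.9% and 8.36% in library 4, while the ratio of the mean shares of Tnfrsf1a is 1.08.

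Cluster 5 brought the feedback genes together. It had 2243 CPM of Nfkbia, 358 CPM of Tnfaip3, 570 CPM of Nfkbiz and 375 CPM of Nfkbid, against 934, 103, 130 and 141 CPM in cluster 0. Cluster 12 had 2490.4 CPM of Nfkbia, 351 CPM of Tnfaip3, 574 CPM of Nfkbiz and 169 CPM of Nfkbid. The receptor Tnfrsf1a did not share this order, with 121 CPM in cluster 5, 108 CPM in cluster 12 and 127 CPM in cluster 0. Tnfrsf1b was 105 and 78.8 CPM in cluster 12 of libraries 4 and 6. Over the 6 libraries Tnfrsf1b was 56.1 to 105 CPM in cluster 5 and 50.8 to 90.3 CPM in cluster 0. Cluster 5 also had 6264 CPM of Fos and 11448 CPM of Jun, immediate-early genes that enzymatic digestion is known to induce. Of a list of 15 immediate-early genes 14 were called higher in microglia-like cells, and their summed microglia-like level in libraries 1 to 6 was 34773, 26325, 27650, 24514, 35500 and 24878 CPM. Libraries 4 and 6, the highest for Tnf, were the lowest for this sum. Its part in the levels of the 10 genes was not tested.

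Other genes of the pathway were described from fixed lists, for which the background of 15.8% of genes called higher and 31.9% called lower in microglia-like cells holds. Of 24 signalling genes next to the receptors 8 were called higher there and 1 lower, among them Casp8 with 5.43-fold, the cell death protease, and Adam17 with 3.16-fold, the enzyme that sheds TNF from the membrane. Of the 5 other subunit and IkB genes Rel (5.35-fold) and Nfkbie (2.59-fold) were called higher, and of 12 other feedback genes Zc3h12a (6.29-fold), Zfp36 (5.90-fold) and Otulin (2.18-fold), with 2 called lower, Irak3 (0.454) and Otud7b (0.144). The proteins of Zc3h12a and Zfp36 break down cytokine transcripts, and that of Otulin trims linear ubiquitin chains. Of 22 known target genes 11 were called higher and 7 lower in microglia-like cells, the lower share being that of the background, with Ccl4, a chemokine, at 23.9-fold and Il1b at 0.367. In endothelial-like cells 16 of the 22 target genes were called lower, where 32.8% of all genes were, and 3 higher, namely Lcn2 (7.78-fold), Vcam1 (3.46-fold) and Ier3 (2.22-fold). Other ligands of the family were spread over other classes. Of the 8 of 14 ligand genes with at least 100 UMIs 2 were called higher in microglia-like cells, Tnfsf13b (16.4-fold) and Tnfsf9 (2.70-fold), and 2 lower, while Ltb was highest in T lymphocyte-like cells with 367 CPM. Of the 14 of 20 receptor genes tested 7 were called higher and 7 lower in microglia-like cells, and Fas, a death receptor, was 222 CPM in endothelial-like cells and 2.29 CPM in microglia-like cells.

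The genes whose levels followed the 10 most closely were found over 47 sums of a class in a library with at least 20 cells, among 12878 genes, as Pearson's r of log2(CPM + 10). The sums share libraries, depth and cell classes, so that r is a description. For Tnf they were Ccl3 (0.883), Tlr2 (0.879) and Csf2rb2 (0.870), and for Tnfaip3 Itgb2 (0.923), Samsn1 (0.916) and Neurl3 (0.915). Nfkbid followed Ptk2b (0.941), Dennd1c (0.932) and Cd84 (0.9298), and Relb followed Stat6 (0.838), Nfkb2 (0.831) and Tgfb1 (0.812). Between the members themselves, r with Tnf was 0.787 for Nfkbid, 0.753 for Nfkbiz, 0.738 for Tnfaip3 and 0.736 for Tnfrsf1b. It was 0.550 for Nfkb1, 0.545 for Relb, 0.510 for Nfkbia, 0.378 for Bcl3 and 0.286 for Tnfrsf1a.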

How the data were processed

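The authors deposited whole-number UMI counts for 6 libraries as 1 unfiltered matrix, made with Cell Ranger (5.0.1 in the file header) on mm10 per the submitters' processing notes. Their methods state 3 mice and an aggregation step that normalises for depth, so reads may already have been thinned. Cells were called in each library by an order-of-magnitude rule (UMIs of at least 0.1 times percentile 99 among the 3000 deepest barcodes), then filtered at 200 features and 10% mitochondrial counts. Cells were log-normalised and clustered (2000 variable genes, 30 components, 20 neighbours, Leiden resolution 0.8, seed 1), with the members and listed genes left out of the variable genes. Clusters were named from markers of 20 classes, with at least 3 markers raised and a lead of 0.5 in mean log2 ratio (pseudocount 10 CPM); clusters over 2% hemoglobin or 50% doublets stayed unnamed. These naming limits were set after the data had been seen. Called doublets (0.804% to 2.83% of a library) were kept. The members and the gene lists were chosen with earlier results of these data known. Named genes are the members in every class, the 3 genes of each list with the largest ratio of their highest class or any counted 5 or fewer, the 3 genes most like each member, and leading genes of clusters; Adam17, Casp8, Ccl4, Il1b, Fas, Fos and Jun were chosen after their values were seen.

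CPM of summed counts had exact Poisson intervals, ratios exact conditional intervals and shares Clopper-Pearson intervals. No p-value was computed, since each group had 1 library. The alternatives were the cell call, doublets, resolution, scaling, thinning, each library left out, the variable genes, the count minimum, the fold and the weighting of classes. A microglia-like set without cluster 12 was added after the data had been seen. The fold call and the intervals of ratios and CPM were tested on class sums simulated as Poisson counts. This simulation did not cover clustering, cell naming or detection beside Tnf. Clustering used leidenalg 0.10.2 with igraph 0.11.9 and scikit-learn 1.9.0. Intervals came from scipy 1.17.1 and figures from matplotlib 3.10.9, under Python 3.11.15 with pandas 2.3.3 and numpy 2.4.6.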

Additional observations from a re-analysis of the deposited data

Results flagged for a closer look

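Barcodes with 1 to 50 UMIs, which hold free RNA and no cell, are outside the classes compared in the report, which gives their Tnf and Bcl3 beside the cells, and all 10 genes were found in them above the limit that a count of 0 allows. Over all libraries these barcodes had 61.1 CPM of Tnf, 57.9 CPM of Tnfrsf1a and 23.2 CPM of Tnfrsf1b. The inhibitors had 632 CPM (Nfkbia) and 52.7 CPM (Tnfaip3), and the nuclear IkB genes 79.4 CPM (Nfkbiz), 66.7 CPM (Nfkbid) and 8.04 CPM (Bcl3). The subunits had 39.8 CPM (Nfkb1) and 18.1 CPM (Relb). By library, free Tnf was 20.7, 27.3, 33.1, 125, 30.4 and 111 CPM in libraries 1 to 6, with libraries 4 and 6 the highest, as in microglia-like cells. Free Tnfrsf1a was 38.3, 52.7, 75.8, 81.3, 38.4 and 49.0 CPM, with library 6 below libraries 2 to 4.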

How the results depend on the processing

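No paired analysis was possible because each group had 1 library and the numbered libraries are not tied to groups. Of the values that answer a comparison, 128 stayed close to the reported value under an alternative and 23 moved. These values are counts of genes and a share, which have no direction that could change. The endothelial-like count of 1 gene called higher, Bcl3, was the least stable. It was 2 when each cell's own CPM was averaged, with thinned cells, without library 4, 5 or 6, with the members kept among the variable genes and without cluster 12, and 0 without library 3 and at a 3-fold call. Without cluster 12, Nfkbia, at 1.97 in the report, was the gene added. The counts at a 3-fold call were 4 in neutrophil-like and 2 in macrophage-like cells, 2 for the range between libraries in microglia-like cells and 1 for detection beside Tnf. The microglia-like range had 2 genes without library 2. The endothelial-like range had 3 genes in thinned cells, where the minimum of 100 UMIs held for the thinned counts and sparse genes could drop out. Microglia-like cells held 78.0% of the Tnf UMIs of named cells. This share was 74.7% with the study's filters alone, 79.7% without doublets and 74.5% at resolution 1.2. It was 79.9% in thinned cells and 71.1% without cluster 12. With single libraries left out it went from 67.4% without library 4 to 90.9% without library 6, with 76.1% without library 3. The microglia-like ratios of single genes kept their direction, 66 close to the reported value and 94 moved. That of Tnf ranged from 2.46 to 12.3, that of Tnfrsf1a from 1.44 to 2.70 and that of Relb from 1.60 to 2.78. The microglia-like calls of Tnfrsf1a and Relb thus did not hold under every alternative. Size factors by the median of ratios shifted the log2 ratios by 1.09 in neutrophil-like, 0.57 in macrophage-like, -0.08 in endothelial-like and -0.12 in microglia-like cells, and called 10, 9, 1 and 8 genes there. The causes of these moves were not tested. With 1 library per group, depth limits only the counting error, and genes under 100 UMIs in a class were not counted among those that differ between libraries.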

Other observations

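At resolution 1.2, an unnamed cluster of 259 cells, led by Cd74 and other antigen presentation genes, was replaced by 124 perivascular macrophage-like and 135 dendritic cell-like cells. Tnf was 347 CPM (308 to 390) in the first and 86.2 CPM (72.3 to 102) in the other. Perivascular macrophages line brain vessels and dendritic cells present antigen. The perivascular macrophage-like cells also had 2217 CPM of Nfkbia, 940 CPM of Nfkbiz and 288 CPM of Nfkbid. In the undivided cluster Tnf was 434, 272, 317 and 55.9 CPM in libraries 3, 4, 5 and 6, the libraries with at least 20 of its cells. Library 6 was the lowest, and the mix of the 2 classes differed, with 93 of its cells dendritic cell-like and 18 perivascular macrophage-like, against 13 and 36 in library 3 and 25 and 35 in library 4. In perivascular macrophage-like cells alone Tnf was 403, 548 and 294 CPM in libraries 3, 4 and 5, and 102 CPM on 14 UMIs in library 6. In dendritic cell-like cells it was 476 CPM on 62 UMIs in library 3, above the perivascular macrophage-like level there. It was 18.4 CPM on 5 UMIs in library 4 and 50.5 CPM on 57 UMIs in library 6, below that level. The part of the mix in the difference between libraries was not tested further.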
